A study of Homo sapiens with 13 samples.

Results

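Chromatin accessibility was examined at 10 heat shock and chaperone genes, HSPA1A, HSPA1B, HSPA8, HSPA5, HSP90AA1, HSP90AB1, HSPH1, DNAJB1, HSPD1 and HSPE1. A region of open chromatin (a peak) was assigned to a gene when it overlapped the gene body extended by 5 kb on both sides in the GENCODE annotation of GRCh37/hg19. By this rule 22 of 129347 peaks were assigned, and they belonged to 8 of the 10 genes. A peak over an annotated transcription start site (TSS) of a member was treated as a TSS peak (10 peaks), and the remaining 12 were treated as flanking peaks. T98G is an established human glioblastoma cell line, and the assay was ATAC-seq, in which a transposase inserts sequencing adapters into accessible DNA. The G1 samples were cells deprived of serum for 72 h. The M-phase samples were deprived of serum for 48 h. They were then released for 36 h into medium with more serum than the usual culture and with the microtubule inhibitor nocodazole. Rounded mitotic cells were collected by shaking them off. Each phase had 3 replicates, and nothing in the labels states that these came from separate cultures, so p-values measure the spread between samples, which may be technical. The sample titles name a HiSeq and a NextSeq run for each M-phase replicate. Each G1 replicate has a single sample, whose title names no instrument. Phase therefore cannot be told apart from the release from serum starvation, from nocodazole or from the added sequencing run. The chromatin fraction and input samples were not analysed here.

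Chaperones bind unfolded proteins and help them to fold, and cells raise their synthesis when proteins are damaged. HSP70 proteins (HSPA8, the constitutive cytosolic form, and HSPA1A and HSPA1B, the stress-induced forms) bind short hydrophobic stretches in cycles of ATP hydrolysis that are driven by J-domain proteins such as DNAJB1 and reset by nucleotide exchange factors such as HSPH1. HSP90 proteins (HSP90AA1, the more inducible form, and HSP90AB1, the constitutive form) act later, on kinases and hormone receptors. HSPA5, also called BiP, is the HSP70 of the endoplasmic reticulum (ER), and HSPD1 and HSPE1 form the mitochondrial HSP60 chamber and its lid. Heat shock factors bind heat shock elements, which are inverted repeats of the unit GAA, and the ER stress response element serves the unfolded protein response.

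The sequences that carry these elements in front of the member genes are shown because each lies inside the TSS peak described for that gene below. They were read from GRCh37/hg19 on the strand of the gene, 5′ to 3′, with the matches to the elements in capitals. The motifs searched on both strands, in the 300 bases upstream of the canonical TSS, were the 3-unit heat shock element (GAA units in alternating orientation, each pair 2 bases apart), the 2-unit form (one such pair, in either order, which the 3-unit form contains) and the ER stress response element (a CCAAT box and a CCACG box 9 bases apart).
HSPA8 distal site, chr11:122933054-122933083, minus strand: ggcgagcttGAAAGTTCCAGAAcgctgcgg
HSPA8 proximal site, chr11:122932879-122932908, minus strand: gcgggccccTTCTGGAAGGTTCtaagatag
HSP90AA1 upstream stretch, chr14:102553382-102553581, minus strand: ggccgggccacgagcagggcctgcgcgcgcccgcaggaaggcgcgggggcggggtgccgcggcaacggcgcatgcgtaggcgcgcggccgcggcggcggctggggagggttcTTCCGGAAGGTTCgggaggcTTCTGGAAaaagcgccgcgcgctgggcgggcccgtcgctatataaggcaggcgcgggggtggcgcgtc
HSPH1 upstream stretch, chr13:31736065-31736231, minus strand: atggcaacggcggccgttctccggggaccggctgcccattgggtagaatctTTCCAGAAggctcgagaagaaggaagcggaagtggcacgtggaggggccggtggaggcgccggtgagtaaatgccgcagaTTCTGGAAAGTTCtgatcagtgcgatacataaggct
DNAJB1 upstream stretch, chr19:14629220-14629409, minus strand: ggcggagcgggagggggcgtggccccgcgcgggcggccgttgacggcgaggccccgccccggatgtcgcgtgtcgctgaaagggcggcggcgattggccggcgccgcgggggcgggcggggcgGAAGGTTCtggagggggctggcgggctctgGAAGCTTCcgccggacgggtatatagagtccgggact
HSPA5 upstream stretch, chr9:128003662-128003822, minus strand: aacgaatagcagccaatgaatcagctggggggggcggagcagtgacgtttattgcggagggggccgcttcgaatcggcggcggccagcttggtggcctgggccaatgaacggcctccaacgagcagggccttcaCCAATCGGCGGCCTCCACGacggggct
HSPD1 site, chr2:198364786-198364815, minus strand: ggcattTTCTGGAAAGTTCTGGAAccgagc
The sites of HSPA8 begin 230 and 55 bases upstream of the TSS, and both hold the 3-unit element. HSP90AA1 has a 3-unit element 88 bases and a 2-unit form 68 bases upstream, and HSPH1 has a 3-unit element 59 bases and a 2-unit form 139 bases upstream. DNAJB1 has 2-unit forms only, at 77 and 47 bases upstream. HSPA5 has the ER stress response element 66 bases upstream and no heat shock element in the window. The HSPD1 site, 245 bases upstream of its TSS, holds overlapping 3-unit matches and lies between the divergent start sites of HSPD1 and HSPE1. No match of these kinds was found in the windows of HSP90AB1 and HSPE1, and the HSPE1 window starts inside the HSPD1 site. Of 19812 promoters of protein-coding genes, 0.414% held a 3-unit element, 11.7% held a 2-unit form and 0.111% held the ER stress response element. A match describes the letters and says nothing of whether a factor was bound.

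The deposited values were read counts per peak that had been scaled to the smallest library, and they are called scaled counts here. Whole reads in peaks numbered from 4333935 to 5365024 in G1 and from 12470564 to 14202790 in M-phase, so the M-phase values rest on more reads. Scaled totals in peaks were also larger in M-phase, at 5475345 to 6000423 against 4191845 to 5092426. Changes below are log2 of M-phase over G1 on the log2(scaled count + 8) scale from limma, and p-values were adjusted by Benjamini-Hochberg across the 73121 peaks left after low ones were removed. At a threshold of 0.05, M-phase exceeded G1 in 14.3% of these and fell short of it in 13.1%. TSS peaks in general leaned upward, with 43.2% of 15500 higher, 5.94% lower and a median change of 0.39, while peaks without a TSS leaned the other way, with 6.51% of 57621 higher and 8628 peaks lower. The balance over all peaks depends on scaling, because 10439 peaks rose and 9548 fell with the deposited values, 8875 rose and 12630 fell with trimmed mean of M values (TMM) scaling, and 6341 rose and 18090 fell with equal totals in peaks, which moved the median of all peaks from 0.02 to -0.24. A loess fit on abundance, which removes any trend of change with signal strength, moved the median of TSS peaks from 0.39 to 0.06, with 21.3% of them higher and 17.1% lower. Of 9 marker genes of glioma and mesenchymal lines, 7 had a TSS peak, among them VIM, FN1, CAV1 and CD44, whereas NES and GFAP had none. SOX2 had a mean of 11.6 scaled counts in G1 and 7.70 in M-phase. Among markers of other cell types, EPCAM had a TSS peak, PTPRC, CD3E and ALB had none, and PECAM1 was not matched in the annotation.

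Of the 10 member TSS peaks, 8 were higher in M-phase and 0 were lower, against 43.2% higher among all TSS peaks. The median change was 1.12, against 0.39 for all TSS peaks, and single peaks ranged from 0.05 to 1.78. In the same 8 peaks every M-phase library exceeded every G1 library, which was the case for 48.5% of all TSS peaks. Of the 7 peaks over a canonical TSS, 6 were higher, 0 were lower and 6 had all M-phase libraries on top, against 51.5%, 4.27% and 56.4% of peaks over the canonical TSS of protein-coding genes. The peaks that rose lie over starts of the cytosolic HSP70, HSP110, J-domain and HSP90 genes and of the ER gene HSPA5. Those at the alternative starts of HSP90AA1 and DNAJB1 also cover starts of other genes (WDR20, and TECR with MIR639). Both peaks of the mitochondrial pair HSPD1 and HSPE1 had changes near 0. With the loess fit the count was 5 higher and 2 lower, against 21.3% and 17.1% of all TSS peaks under the same fit, and the median was 0.27 against 0.06.

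**Figure D1:**
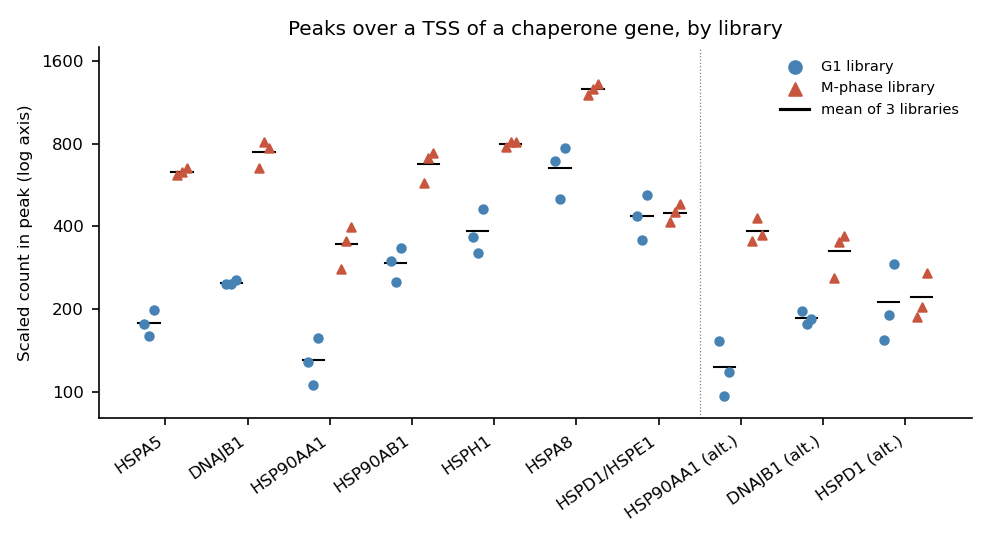
Scaled counts (log axis) of the 10 member TSS peaks in the 3 G1 libraries (circles) and the 3 M-phase libraries (triangles), with bars at the means and the alternative starts (alt.) to the right of the dotted line. The phases separate in 8 peaks and overlap at the shared peak of HSPD1 and HSPE1 and at the alternative start of HSPD1.

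HSPA8, the constitutive cytosolic HSP70, had the strongest TSS peak of the set (chr11:122931880-122933814, over coding exons and UTR). Its scaled counts were 690, 504.7 and 771 in the G1 libraries and 1206.2, 1267.4 and 1325.2 in the M-phase libraries. All M-phase values lay above all G1 values, and the G1 libraries spread more widely (655 ± 137 against 1266 ± 59.5, SD, n = 3). The change was 0.96 with a standard error of 0.15 (limma, adjusted p = 2.07e-07), which exceeded 83.7% of TSS peaks. With equal totals it was 0.61 (limma, adjusted p = 3.88e-07). This call depends on how a trend of change with signal strength is treated, since the loess fit gave -0.14 (limma, adjusted p = 0.207).

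HSPH1 encodes HSP110, a nucleotide exchange factor for HSP70. Its TSS peak (chr13:31735017-31736904) had 365.9, 320.3 and 464 scaled counts in G1 and 779.4, 809.7 and 809.3 in M-phase. The M-phase libraries lay close together and well above the G1 libraries. The change was 1.06 with a standard error of 0.16 (limma, adjusted p = 8.21e-08). Under the loess fit it was 0.15 and did not pass the test (limma, adjusted p = 0.261).

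DNAJB1 encodes HSP40, the J-domain protein that delivers substrates to HSP70. Its canonical TSS peak (chr19:14628171-14629706) had 247.5, 246.1 and 255 scaled counts in G1, the narrowest spread among the member TSS peaks, and 652.5, 808.8 and 773.7 in M-phase. The phases did not overlap, and the lowest M-phase library was replicate 1. The change was 1.54 with a standard error of 0.16 (limma, adjusted p = 1.01e-12), above 98.3% of TSS peaks, and the loess fit gave 0.73 (limma, adjusted p = 2.04e-07). A second TSS peak about 11 kb upstream (chr19:14639851-14640920) covers an alternative start of DNAJB1 as well as starts of TECR and MIR639, and the signal of these starts cannot be told apart. It had 196.8, 177.3 and 184 scaled counts in G1 and 259.9, 349.8 and 369.1 in M-phase, again without overlap. Its change was smaller, at 0.77 (SE 0.18, limma, adjusted p = 0.000479), with equal totals it was 0.43 (limma, adjusted p = 0.0157), and under the loess fit it was 0.19 (limma, adjusted p = 0.337). Within each library the log2 ratio of the canonical to the upstream peak ran from 0.32 to 0.46 in G1 and from 1.05 to 1.30 in M-phase.

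HSP90AA1 encodes the inducible cytosolic HSP90. At its canonical TSS peak (chr14:102552661-102554067) the scaled counts were 128.2, 106.3 and 157 in G1 and 279.7, 355.2 and 397 in M-phase. Every M-phase library exceeded every G1 library, and replicate 1 was the lowest of the M-phase libraries. The change was 1.35 with a standard error of 0.19 (limma, adjusted p = 1.07e-08), and the loess fit gave 0.83 (limma, adjusted p = 5.51e-06). A TSS peak of a long HSP90AA1 transcript lies about 52 kb upstream (chr14:102605502-102607174) and also covers the start of WDR20. There the G1 libraries had 153.1, 96.9 and 118 scaled counts and the M-phase libraries 354.3, 428.1 and 371.5. The phases were separate, and the change was 1.61 (SE 0.19, limma, adjusted p = 2.92e-11). Under the loess fit it was 1.08 (limma, adjusted p = 2.08e-08). The within-library log2 ratio of the canonical to the upstream peak overlapped between phases, at -0.24 to 0.39 in G1 and -0.33 to 0.09 in M-phase.

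HSP90AB1 encodes the constitutive cytosolic HSP90. Its TSS peak (chr6:44213754-44215890, over UTR) had 298.3, 251.6 and 334 scaled counts in G1 and 576.7, 709.9 and 737.7 in M-phase. The phases did not overlap, with replicate 1 again the lowest M-phase library. The change was 1.17 with a standard error of 0.16 (limma, adjusted p = 1.25e-08). Under the loess fit it was smaller, at 0.35, and still passed the test (limma, adjusted p = 0.00906). The log2 ratio of the HSP90AA1 to the HSP90AB1 peak ran from -1.18 to -1.05 in G1 and from -1.02 to -0.88 in M-phase.

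HSPA5, the ER chaperone BiP, had the highest change of the member peaks with the deposited scaling. Its TSS peak (chr9:128002907-128004388) had 177, 160.2 and 199 scaled counts in G1 and 615.5, 633.3 and 650.1 in M-phase. The M-phase libraries were close together, and the lowest of them was over 3 times the highest G1 library. The means were 179 ± 19.5 in G1 and 633 ± 17.3 in M-phase (SD, n = 3), a ratio of 3.54. The change was 1.78 with a standard error of 0.17 (limma, adjusted p = 1.29e-14), above 99.6% of TSS peaks, and the loess fit gave 1.07 (limma, adjusted p = 2.54e-11). Under the loess fit a flanking peak of HSPA5 was higher (1.18), and the upstream HSP90AA1 peak was about equal (1.08). The HSPA5 TSS peak also covers the start of the divergent transcript HSPA5-DT.

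HSPD1 and HSPE1, the mitochondrial HSP60 and its cochaperonin HSP10, share a bidirectional promoter under a single peak (chr2:198363699-198365412), which also covers the start of the readthrough transcript HSPE1-MOB4. Its scaled counts were 436.4, 357 and 519 in G1 and 414.8, 450.4 and 482.6 in M-phase. All M-phase libraries fell within the range of the G1 libraries. The change was 0.05 with a standard error of 0.16 (limma, adjusted p = 0.862), above 29.7% of TSS peaks. The sign depends on scaling: it was -0.085 with TMM scaling (limma, adjusted p = 0.717), -0.30 with equal totals (limma, adjusted p = 0.0412) and -0.77 with the loess fit (limma, adjusted p = 3.02e-08). An alternative start of HSPD1 about 16 kb upstream (chr2:198380093-198381467), shared with MOB4, had 154.1, 189.8 and 292 scaled counts in G1 and 186.6, 204.4 and 270.9 in M-phase. These libraries overlapped too, and the change was 0.09 (SE 0.19, limma, adjusted p = 0.793). Under the loess fit it was lower in M-phase, at -0.43 (limma, adjusted p = 0.0281).

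The difference between the mitochondrial pair and the rest was looked at within each library, where the scaling of a whole library nearly cancels but a trend of change with signal strength does not. The HSPD1 and HSPE1 peak was taken as the reference after its values had been seen, so these ratios are given as a description with no test. From G1 to M-phase the mean log2 ratio to it rose by 1.73 for HSPA5, 1.49 for DNAJB1, 1.30 for HSP90AA1, 1.12 for HSP90AB1, 1.01 for HSPH1 and 0.91 for HSPA8. In each of these 6 genes all M-phase ratios lay above all G1 ratios. For the alternative HSPD1 peak the difference was 0.04, and the phases overlapped.

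**Figure D2:**
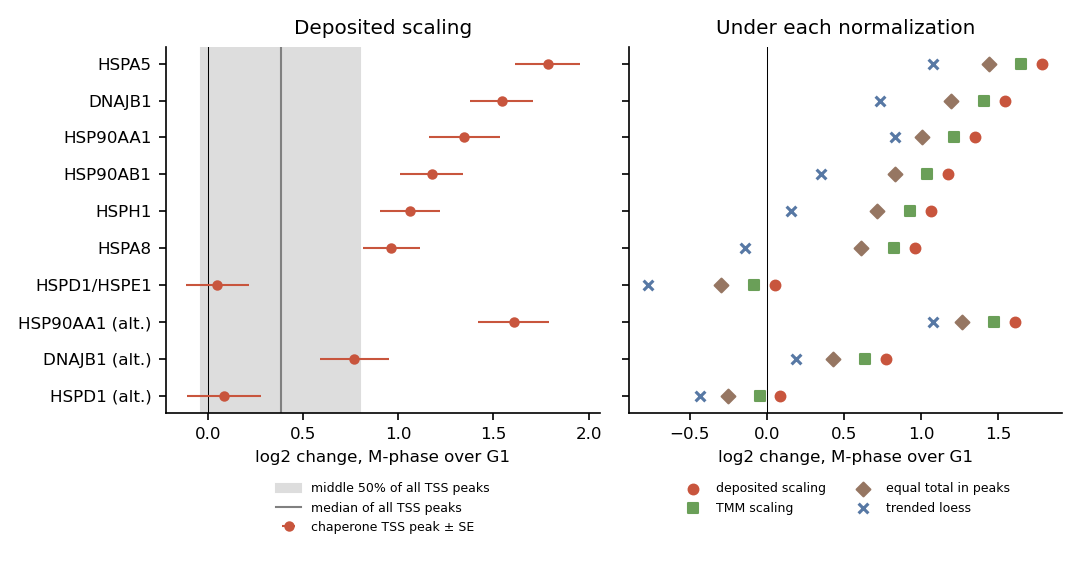
Change of the 10 member TSS peaks, as log2 of M-phase over G1, with bars of 1 standard error under the deposited scaling (left, beside the median and the middle 50% of all TSS peaks) and under each normalization (right). With the deposited values the peaks ran from 0.05 (HSPD1 and HSPE1) to 1.78 (HSPA5), and the loess fit moved HSPA8 to -0.14 and HSPH1 to 0.15.

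Levels were compared between genes per kilobase of peak. In G1 the order of the TSS peaks ran from HSPA8 (339 ± 70.5 scaled counts per kb, SD, n = 3) over the HSPD1 and HSPE1 peak (255 ± 47.3) and HSPH1 (203 ± 38.9) down to HSP90AA1 (92.8 ± 18.1 at the canonical and 73.3 ± 17.0 at the upstream peak). Each neighbour in this G1 order overlapped the next. In M-phase HSPA8 stood alone at the top (654 ± 30.8 scaled counts per kb). DNAJB1 (485 ± 53.4), HSPA5 (427 ± 11.7) and HSPH1 (423 ± 9.21) followed and overlapped one another, and all of them lay above HSP90AB1 (316 ± 40.3). The HSPD1 and HSPE1 peak (262 ± 19.8) moved from rank 2 in G1 to rank 7 in M-phase, and HSPA5 from rank 8 to rank 3. In M-phase the HSPD1 and HSPE1 libraries overlapped those of the neighbours above and below, so rank 7 is not resolved.

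The flanking peaks were weaker. Of the 12, 9 passed the filter on low values and 5 of these were higher in M-phase while 0 were lower, with a median change of 0.79, against 14.3% higher and 13.1% lower among all peaks. However, 4 of the 9, and 3 of the 5 that were higher, had a G1 library below 10 scaled counts and depended on M-phase values to pass the filter, so the count and the median are no measure of the flanking peaks as a group. With at least 10 in every library 5 peaks were left, of which 2 were higher, and the median was 0.12. In 9 of the 12 no TSS was covered, and 3 covered the TSS of another gene, where 2 of 3 were higher. Among the 6 tested peaks without a TSS, 3 were higher, beside 6.51% of all peaks without a TSS, and 3 had all M-phase libraries above all G1 libraries, beside 12.0%. Nothing is read from these shares, since 2 of the 3 in each case had a G1 library below 10. A count of this size rests on few peaks, and without M-phase replicate 1 the count over all flanking peaks was 3.

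The strongest flanking peak lies 9.12 kb downstream of the HSP90AB1 TSS (chr6:44223958-44225682) and is the promoter peak of SLC35B2, a sulfate donor transporter of the Golgi. It had 171, 142.2 and 181 scaled counts in G1 and 414, 530.3 and 512.9 in M-phase. The phases were separate, and the change was 1.51 (SE 0.18, limma, adjusted p = 3.35e-11, and 0.87 under the loess fit), larger than that of the HSP90AB1 TSS peak itself at 1.17. The difference between these peaks was not tested.

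HSPA5 was flanked by 4 peaks. One lies beyond the 3′ end (chr9:127995663-127996184) and had 12.9, 7.8 and 14 scaled counts in G1 and 24.7, 34.6 and 40.9 in M-phase. Its phases did not overlap (change 1.08, SE 0.29, limma, adjusted p = 0.00212), and 39.1% of its 50-base windows also occur elsewhere in the genome. With a G1 library below 10, it depended on M-phase values to pass the filter on low values. A short peak about 2 kb upstream (chr9:128005656-128005783) had 15.9, 7.8 and 3 scaled counts in G1 and 21, 15.7 and 31.3 in M-phase. Here the phases overlapped in their single values, with G1 replicate 1 above M-phase replicate 2. This peak, too, depended on M-phase values to pass the filter. The change was 0.90 (SE 0.30, limma, adjusted p = 0.0152), and it no longer passed without G1 replicate 3 (0.63, limma, adjusted p = 0.140), without M-phase replicate 3 (0.71, limma, adjusted p = 0.104) or with equal totals in peaks (0.67, limma, adjusted p = 0.0806). With a pseudocount of 1 the change was 1.44. The other two, of which one lies in the 3′ part of the gene (6.10 ± 0.17 in G1 and 12.7 ± 2.76 in M-phase, SD, n = 3), were too low to be tested.

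DNAJB1 had a peak about 7 kb downstream of its TSS (chr19:14621624-14622264) with 20.9, 21.9 and 18 scaled counts in G1 and 46.1, 39.1 and 37.5 in M-phase. The phases were separate, and the change was 0.79 (SE 0.27, limma, adjusted p = 0.0191). The call was lost without M-phase replicate 1 (limma, adjusted p = 0.0945), without M-phase replicate 2 (limma, adjusted p = 0.0556) and with equal totals in peaks (limma, adjusted p = 0.135). In the long intron of DNAJB1 a peak (chr19:14666871-14667719) had means of 53.8 ± 9.52 in G1 and 59.1 ± 11.6 in M-phase (SD, n = 3), with a change of 0.12 (limma, adjusted p = 0.776). At the far end of the gene a peak over a TECR start (chr19:14672827-14673227) had means of 30.9 ± 13.8 and 19.8 ± 6.20, with a change of -0.46 (limma, adjusted p = 0.250), and with equal totals in peaks it was lower in M-phase (-0.72, limma, adjusted p = 0.0451).

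Downstream of HSP90AA1 a peak over RN7SL472P, a pseudogene of the signal recognition particle RNA (chr14:102543792-102544413), had 8, 14.8 and 12 scaled counts in G1 and 26.8, 16.1 and 37.1 in M-phase. The phases did not overlap, although M-phase replicate 2 came close to the G1 libraries. The change was 0.79 (SE 0.29, limma, adjusted p = 0.0322). With a G1 library below 10, this peak depended on M-phase values to pass the filter on low values. The call was lost without G1 replicate 1 (0.65), without M-phase replicate 1 (0.77), without M-phase replicate 3 (0.58), with TMM scaling (0.70) and with equal totals in peaks (0.55). A peak downstream of HSPA8 (chr11:122924487-122924674) had means of 7.67 ± 1.15 in G1 and 17.7 ± 3.70 in M-phase (SD, n = 3). All its G1 libraries were below 10, so it passed the filter on low values only through M-phase. Its change of 0.71 missed the threshold (limma, adjusted p = 0.0531), but passed it under the loess fit (limma, adjusted p = 0.0393) and without M-phase replicate 3 (0.81, limma, adjusted p = 0.0476). Nothing is read from these p-values, since the filter kept this peak for its M-phase values. A peak downstream of HSPH1 (chr13:31703979-31704446) had means of 22.1 ± 6.0 and 24.1 ± 15.8 and a change of -0.00 (limma, adjusted p = 0.999).

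**Figure D3:**
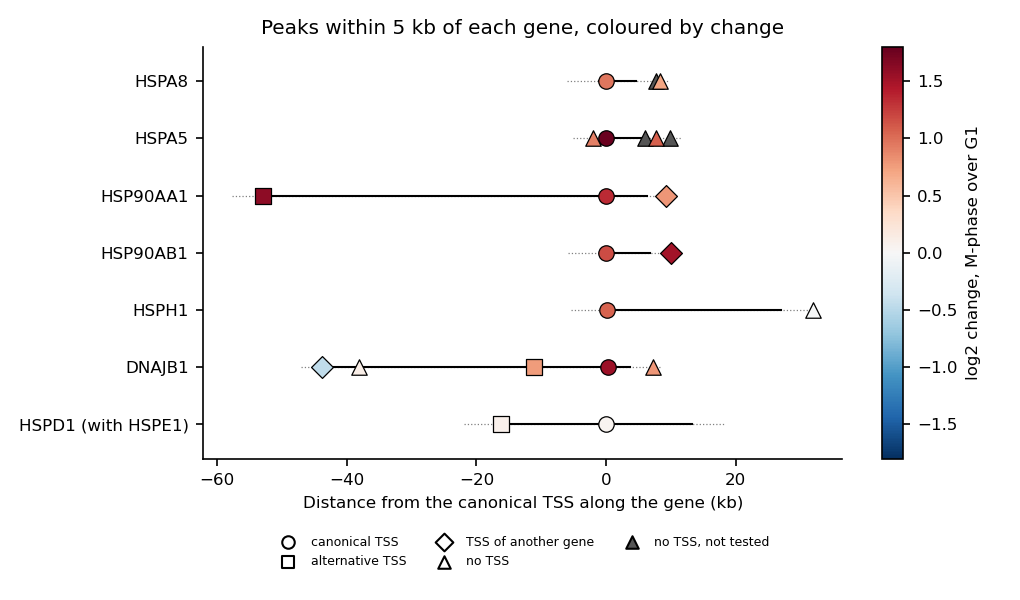
Position of the member peaks along their genes, in kb from the canonical TSS in the direction of transcription. Solid lines are gene bodies and dotted lines the 5 kb extension, symbols give the kind of peak and colour the log2 change of M-phase over G1, with untested peaks in grey. The strongest red marks TSS peaks, with HSPA5 highest at 1.78, and the lowest value is -0.46 at the TECR start.

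HSPA1A and HSPA1B, the stress-induced HSP70 genes of chromosome 6, had no peak within 5 kb among those analysed here, and they are not described further. The nearest analysed peaks lay 458 kb to the left and 1574 kb to the right of HSPA1A. Between 30000000 and 33000000 on chromosome 6 the analysed peaks numbered 3, against 55 between 44000000 and 45000000, where HSP90AB1 lies. Of the 50-base windows of these genes, 74.99% of HSPA1A and 71.6% of HSPA1B occur elsewhere in the genome. Within the primary assembly of GRCh37, 0% of the windows of both genes occur at more than 3 places. Reads with up to 3 locations were kept. Whether the authors mapped to sequences beyond this assembly is not given in the sources used here. The 0% therefore does not show that reads of these genes were kept. The part of repeated sequence in the absence of a peak was not tested.

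Other genes of protein folding were taken from 5 lists, each gene by its strongest TSS peak. Of 64 listed genes, 61 had a tested TSS peak, 40 rose and 1 fell, and the median change was 0.76. The loess fit gave 19 higher and 12 lower, beside 21.3% higher and 17.1% lower among all TSS peaks under that fit. The counts with the deposited scaling are set beside 43.2% of all TSS peaks higher, and beside 51.5% higher with a median change of 0.51 among peaks over the canonical TSS of protein-coding genes.

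In the heat shock response list 10 of 16 tested genes rose and 1 fell, with a median change of 0.69. Among peaks over the canonical TSS of protein-coding genes 51.5% were higher, with a median of 0.51. BAG3, a cochaperone that links HSP70 to autophagy, had 149.1, 118 and 90 scaled counts in G1 and 397.1, 496.5 and 375.3 in M-phase, without overlap (change 1.78, SE 0.19, limma, adjusted p = 8.06e-13). HSPA4L, an HSP110 relative, was the only listed gene that fell with the deposited scaling, from 129.2, 127.3 and 196 to 75.4, 59.7 and 83.7 scaled counts (change -0.96, SE 0.21, limma, adjusted p = 0.000231). HSF1, the main factor of the heat shock response, rose from 236.6, 222.7 and 234 to 426.8, 432.2 and 450.9 (change 0.90, limma, adjusted p = 1.69e-05), and its peak also covers the start of BOP1. HSF2, a second heat shock factor, had 339, 316.4 and 466 scaled counts in G1 and 268.2, 334.6 and 301.2 in M-phase, with overlap (change -0.29, limma, adjusted p = 0.226). HSPA1L, HSPA2 and CRYAB had no TSS peak. HSPA6 changed by 0.94, but sequence shared with other places in the genome was not measured for its peak, so its value is uncertain.

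The counts of these lists, too, stand beside 43.2% higher among all TSS peaks. Over the canonical TSS of protein-coding genes 51.5% were higher, with a median change of 0.51. Among the cytosolic HSP90 cochaperones 8 of 10 genes rose and 0 fell (median change 0.97). The ER chaperone and unfolded protein response list had 13 of 18 genes higher and 0 lower (median change 0.86). DDIT3, the stress-induced factor CHOP, had 282.3, 259.4 and 319 scaled counts in G1 and 834.6, 867.7 and 1006.2 in M-phase (change 1.63, limma, adjusted p = 5.13e-14), under a peak shared with MBD6. ATF4, which drives the amino acid response, had 392.7, 290.6 and 354 in G1 and 1030.7, 1015.3 and 1174.1 in M-phase (change 1.62, limma, adjusted p = 2.57e-14). Both genes had phases without overlap. Of the mitochondrial chaperones and proteases, 6 of 9 genes rose and 0 fell (median change 0.72), and HSPA9, the mitochondrial HSP70 named after its value was seen, changed by 0.72 (limma, adjusted p = 0.00106). The 8 subunits of the cytosolic chaperonin CCT/TRiC gave the lowest median, 0.43, with 3 higher and 0 lower.

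**Figure D4:**
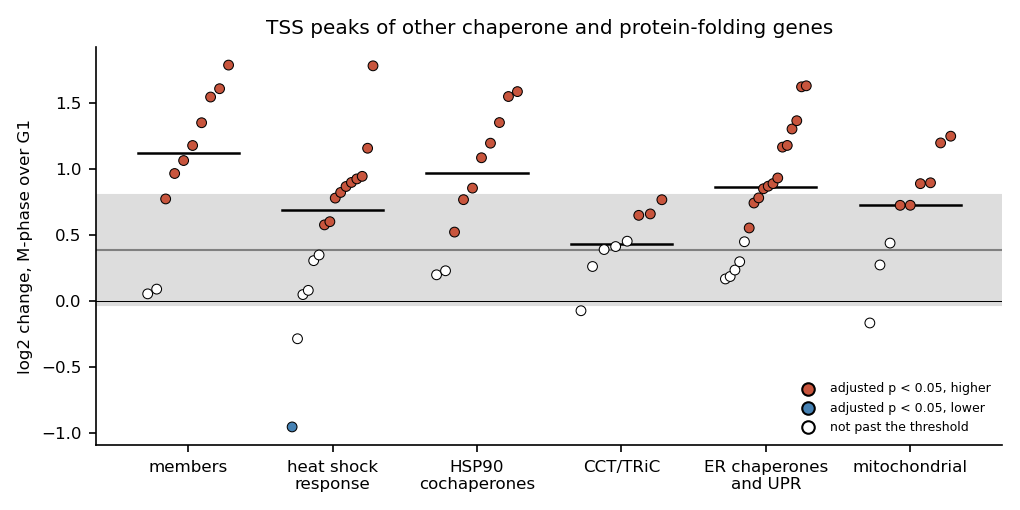
Change from G1 to M-phase (log2 of M-phase over G1) of the TSS peaks of the listed protein folding genes, 1 point per gene, beside the 10 member TSS peaks. Black bars are medians, the grey line and band are the median and middle 50% of all TSS peaks, and filled points passed the test. Medians of the lists ran from 0.43 for the CCT/TRiC subunits to 0.97 for the HSP90 cochaperones, and HSPA4L lay lowest at -0.96.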

How the data were processed

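ATAC-seq was measured in T98G cells in G1 and M-phase, with 3 replicates each, grouped by the labels. Per the submitters' processing notes and the study's methods, the authors trimmed adapters with cutadapt, mapped reads to hg19 with Bowtie (reads with up to 3 locations were kept), removed mitochondrial reads with SAMtools, called broad peaks on merged replicates with MACS2 and merged the peaks of both phases. The deposited values are a signal, read counts per peak that the authors scaled to the smallest library and rounded to 0.1. How the HiSeq and NextSeq runs of an M-phase replicate were joined is not given in the sources used here. Deposited columns with the authors' own log2 comparison were not used. Because a count model needs whole reads, edgeR served only as an alternative, on reads recovered from the steps of the values (99.9992% to 100% of values were whole multiples of the step within 0.1).

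Peaks were kept with a value of at least 10, relative to a library of median total in peaks, in at least 3 libraries. A total of at least 15 was also required, which left 73121 of 129347 peaks. They were fitted with limma 3.58.1 in R 4.3.3 (lmFit and eBayes with trend) on log2(value + 8), with Benjamini-Hochberg adjustment and a threshold of 0.05, and the fit was tested on simulated data. Starts and gene bodies came from GENCODE release 44 lifted to GRCh37, and coordinates are 1-based. A peak's repeated sequence is the percent of its 50-base windows found elsewhere in the primary assembly of GRCh37. Every member TSS peak, each flanking peak past the threshold, the listed genes with the 3 largest rises and falls, and HSF1 and HSF2 were to be named, and other names were chosen after their values were seen. The members and lists were chosen with earlier results of these data known. A marker gene of the lists is not reported here. Alternatives were TMM scaling, equal totals, a loess fit on abundance, other filters, a pseudocount of 1, a replicate block, each replicate left out, edgeR 4.0.16, peaks with repeated sequence left out, transcripts tagged basic only, and windows of 0 or 10 kb. Counting error was not modelled apart from the spread between replicates.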

Additional observations from a re-analysis of the deposited data

How the results depend on the processing

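With equal totals in peaks, 6341 peaks of all those tested were higher and 18090 lower, the member TSS peaks had 1 lower and a median of 0.77, the flanking peaks had 2 higher and 1 lower (the TECR start at the far end of DNAJB1), and the pathway lists had 4 lower. With the loess fit the member TSS peaks had 5 higher and 2 lower (median 0.27), and the pathway lists had 19 higher and 12 lower. TMM scaling gave 2 lower in the pathway lists. The HSPD1 and HSPE1 peak changed sign with TMM scaling (-0.085), equal totals (-0.30) and the loess fit (-0.77), and ranged from -0.084 to 0.18 over the fits without 1 replicate. It was -0.084 without G1 replicate 2 and -0.00 without M-phase replicate 3. The alternative HSPD1 peak likewise had -0.046, -0.25 and -0.43 (the last past the threshold), and ranged from -0.11 to 0.34, with -0.11 without G1 replicate 1 and -0.06 without M-phase replicate 3. HSPA8 had -0.14 with the loess fit. The cause of these shifts was not tested.

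A filter of at least 10 in every library left 5001 of all peaks lower, 2 flanking peaks higher and a flanking median of 0.12. The flanking median was 1.10 with a pseudocount of 1 and 1.17 with edgeR on whole reads, and with no extension of the gene body 0 flanking peaks were higher and the median was 0.12, from 1 tested peak. Over the fits without 1 replicate the member TSS peaks kept 8 higher and 0 lower, with medians of 1.01 to 1.24, the flanking peaks had 3 to 5 higher, the flanking median was 0.68 to 0.83, and the pathway lists had 37 to 49 higher. Same-numbered replicates did not deviate together (correlations of 0.0059, -0.0101 and 0.0284), so the numbers were not taken to pair the samples. With the replicate block 10881 peaks were higher and 10063 lower, and no call on a named member peak changed. Flanking peaks of about 10 to 40 scaled counts are limited by depth.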

Other observations

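The promoter elements shown for the member genes occur at other genes too, and the TSS peaks of these were examined after the members' values had been seen, as a description with no test. Apart from the members, genes with the 3-unit heat shock element in the 300 bases upstream had 32 tested TSS peaks, of which 17 were higher and 2 lower in M-phase, with a median change of 0.56. The median over all peaks at the canonical TSS of protein-coding genes was 0.51, and 51.5% of those were higher. Genes with a 2-unit form had 1113 such peaks with a median of 0.49, of which 49.9% were higher. The ER stress response element was found upstream of 14 such peaks other than that of HSPA5, with 10 higher, 1 lower and a median of 0.64. With the loess fit the medians were 0.14 for the 3-unit element and 0.00 for the ER stress response element, against 0.07 for all. Genes with the 3-unit element that rose include HNRNPA2B1 (1.47), JMJD6 (1.39), ST13, a cochaperone of HSP70 (1.35), and DNAJB6 (1.15). With the ER stress response element they include XBP1, a factor of the unfolded protein response (1.36), SYNPO (1.24) and CALR, an ER lectin chaperone (1.18). VWC2L (-1.07) and ARL14EPL (-0.89) fell among genes with the 3-unit element, and TRIM5 (-0.86) among those with the ER stress response element. Others did not pass the test, among them SERPINH1, a collagen chaperone (0.08), CHORDC1, a cochaperone of HSP90 (0.30), and PDIA6, an ER disulfide isomerase (0.45). Several of these peaks cover the starts of a pair of genes, such as JMJD6 with METTL23, so the genes are not independent.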
